A study of Homo sapiens with 18 samples.

Results

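The mevalonate pathway up to squalene epoxide was followed through the RNA of 9 genes that encode its enzymes: ACAT2, HMGCS1, MVK, PMVK, MVD, IDI1, FDPS, FDFT1 and SQLE. They were taken as enzymes of the pathway, by a list that uses no measured value but was set with earlier results of these data known and does not cover every reaction, and make up 9 of the 60483 genes listed; all 9 were among the 13789 genes that were tested, those with a mean of at least 1 TPM, a length-corrected share of all transcripts in a sample. The cells were OVCAR5, a human ovarian cancer line of unmodified genotype that the labels describe as high grade serous. There were 18 RNA samples, 3 in each of 6 conditions, all collected after 24 h in medium with albumin freed of fatty acids. The 6 conditions were DMSO alone (the vehicle), 1 µM CAY10566, 50 µM stearate with DMSO, 50 µM stearate with CAY10566, 50 µM oleate with DMSO and 50 µM oleate with CAY10566. Oleate carries the double bond that stearoyl-CoA desaturase puts into saturated stearate, and CAY10566 inhibits that desaturase. For the fatty acid comparisons the samples with and without CAY10566 were pooled into 3 groups of 6, called control, stearate and oleate, and the same 6 control samples served both fatty acids.

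The pathway condenses acetyl-CoA into mevalonate, phosphorylates and decarboxylates it to the isoprene building block isopentenyl diphosphate, joins such blocks into farnesyl diphosphate, and joins farnesyl diphosphate into squalene, the first committed intermediate of sterols. Farnesyl diphosphate also feeds protein prenylation, ubiquinone and dolichol. Transcription of most of these enzymes is known to be under the control of sterol regulatory element-binding proteins (SREBPs), membrane-bound factors that are cleaved and released when membrane sterol is low.

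As a check of the label, all 5 epithelial markers were expressed, with means over the 18 samples from 49.8 TPM for CDH1 to 895 TPM for KRT8. Of the 5 Müllerian and serous markers, WFDC2 had a mean of 125 TPM and PAX8 of 11.8 TPM, whereas WT1, MUC16 and MSLN had low means of 0.126, 0.632 and 1.02 TPM. Of the 8 markers of other cell types, PTPRC and CD3E (leukocyte), VWF (endothelial) and DCN (stromal) had means of at most 0.0861 TPM, and PECAM1 (endothelial) and PDGFRB (stromal) of 0.326 and 0.324 TPM. The other 2 were higher: stromal COL1A1 had a mean of 5.04 TPM and CD68, a lysosomal glycoprotein listed as a leukocyte marker, of 94.5 TPM (from 81.88 to 113 TPM). Every sample's TPM sum to the same total and keep no depth, so the reads behind each value are unknown and the precision is that of the replicates. No pair of samples held identical values, and correlations of log2(TPM + 1) lay between 0.982 and 0.987 between replicates and between 0.978 and 0.987 between samples of different conditions. Per the study's methods each treatment was run in triplicate on cells in multi-well plates. They also state in general that in vitro experiments were repeated independently. Whether the 3 RNA samples of a condition came from such repeats is not given in the sources used here, so the p-values measure the spread between these samples, which may be technical.

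Expressed per length, the 9 genes covered a wide range in the control samples. FDPS was highest at 215 ± 8.34 TPM (SD, n = 6), followed by FDFT1 at 118 ± 5.35 TPM and MVD at 104 ± 9.74 TPM. IDI1 at 91.8 ± 5.76 TPM, HMGCS1 at 91.4 ± 13.2 TPM and SQLE at 77.4 ± 4.17 TPM formed a middle range in which IDI1 and HMGCS1 differed by less than their spread. ACAT2 reached 38.9 ± 4.38 TPM, and the kinases MVK and PMVK were lowest, at 17.6 ± 0.811 and 17.0 ± 0.677 TPM, and differed by less than the spread of either. Summed over the 9 genes, the level was 772 ± 36.3 TPM in control, 745 ± 56.4 TPM in stearate and 621 ± 22.0 TPM in oleate (n = 6 each), given here without a test.

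**Figure D1:**
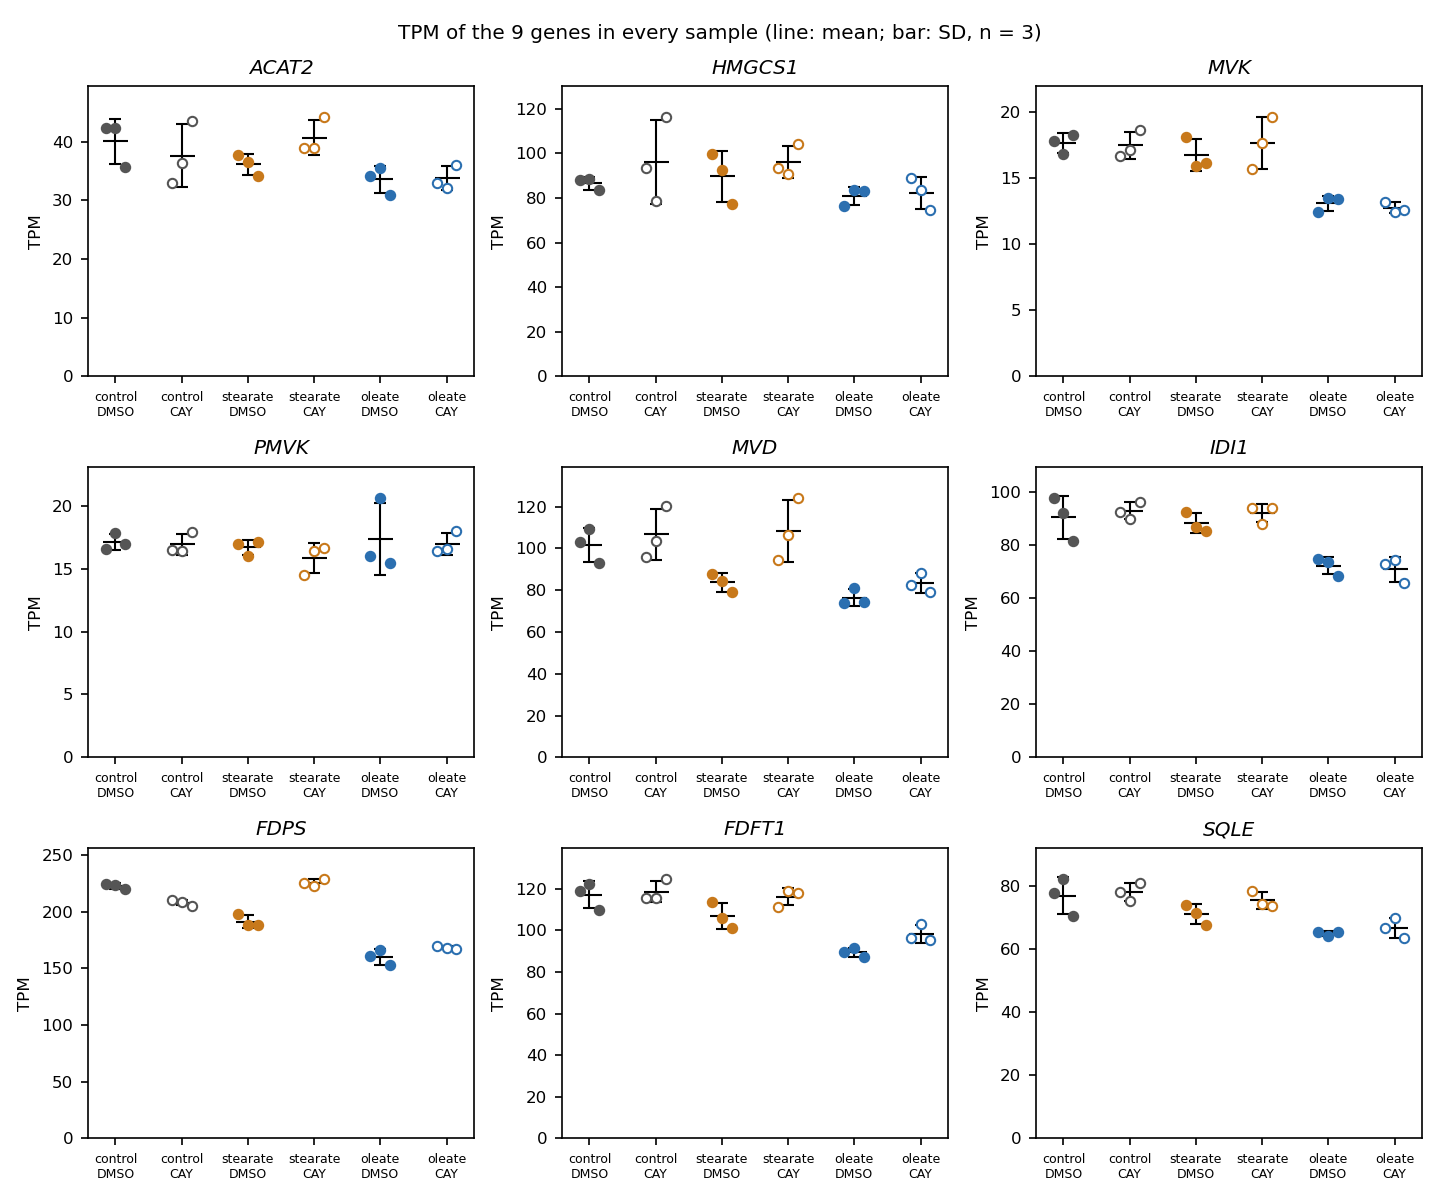
TPM of each of the 9 genes (vertical axis, from 0) in every sample, by condition; filled points are DMSO samples, open points CAY10566 samples, lines means and bars SD (n = 3). In MVK, IDI1 and FDPS all 6 oleate samples lie below all 12 other samples, and in PMVK they do not separate.

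The stretch upstream of the start site is shown for 4 genes that fell by more than 20% with oleate and, for contrast, for PMVK, which did not. RefSeq promoter entries were matched for 6 of the 9 genes (FDPS, HMGCS1, IDI1, MVD, MVK and PMVK). The windows are the 250 bases before the RefSeq start on GRCh38.p14: chr1:155308616-155308865 on the plus strand for FDPS, chr12:109573544-109573793 plus for MVK, chr16:88663092-88663341 minus for MVD, chr10:1049120-1049369 minus for IDI1 and chr1:154936720-154936969 minus for PMVK. Each is written 5′ to 3′ along its gene, and capitals mark the letters CCAAT on either strand (ATTGG where the match is on the other strand).

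FDPS: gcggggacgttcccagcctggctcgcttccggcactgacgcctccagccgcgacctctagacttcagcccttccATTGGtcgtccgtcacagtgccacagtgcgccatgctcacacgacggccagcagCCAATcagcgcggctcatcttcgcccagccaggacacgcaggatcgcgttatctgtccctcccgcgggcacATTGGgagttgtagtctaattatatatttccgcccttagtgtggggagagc
MVK: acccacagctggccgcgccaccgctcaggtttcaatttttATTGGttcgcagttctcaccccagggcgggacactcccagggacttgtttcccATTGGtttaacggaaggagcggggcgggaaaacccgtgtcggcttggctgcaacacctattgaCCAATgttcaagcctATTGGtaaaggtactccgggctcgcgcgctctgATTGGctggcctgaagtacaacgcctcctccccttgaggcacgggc
MVD: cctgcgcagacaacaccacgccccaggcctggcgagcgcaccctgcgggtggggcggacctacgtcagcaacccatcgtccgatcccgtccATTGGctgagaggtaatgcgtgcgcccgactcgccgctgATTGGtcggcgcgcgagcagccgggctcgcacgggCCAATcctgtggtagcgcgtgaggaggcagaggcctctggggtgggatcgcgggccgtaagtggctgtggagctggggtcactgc
IDI1: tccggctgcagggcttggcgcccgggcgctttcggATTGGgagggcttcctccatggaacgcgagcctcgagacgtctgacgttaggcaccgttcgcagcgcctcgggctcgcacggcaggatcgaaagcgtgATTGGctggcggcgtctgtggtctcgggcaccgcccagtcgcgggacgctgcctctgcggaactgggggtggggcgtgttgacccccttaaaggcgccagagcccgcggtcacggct
PMVK: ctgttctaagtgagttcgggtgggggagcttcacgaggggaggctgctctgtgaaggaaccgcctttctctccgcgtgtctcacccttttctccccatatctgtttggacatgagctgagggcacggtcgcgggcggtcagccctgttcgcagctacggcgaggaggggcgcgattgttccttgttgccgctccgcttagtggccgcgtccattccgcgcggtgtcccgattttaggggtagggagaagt

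CCAAT is the core that the transcription factor NF-Y binds. It occurred 3 times in the FDPS window, 5 times in MVK, 3 times in MVD, 2 times in IDI1 and 2 times in HMGCS1, and 0 times in PMVK. HMGCS1, whose window is not printed, did not pass with oleate as deposited either (log2 difference -0.15, limma adjusted p = 0.169). Whether CCAAT goes with the fall was not tested. Among all 35116 RefSeq windows of the same length, 32.0% held at least 1 match and 9.53% at least 2, against 5 of these 6. GGGCGG, a GC box, was in 6 of 6 windows against 42.6% of all. TCACNCCAC, the letters of a sterol regulatory element, was in 0 of 6 against 0.883%, and the shorter TCACNCCA was in 1, that of MVK, against 3.2%. In all, 8 patterns were searched on both strands, and those described were chosen with the matches seen. The others were TCACCCCAC (0 of 6, 0.362% of all), TCACNCNAC (1 of 6, in FDPS, 2.02%), TCACNNCAC (0 of 6, 2.88%) and CACGTG (0 of 6, 6.34%). The patterns that begin with TCAC overlap each other in their letters. Windows without a match say only that those letters are not within these 250 bases. The MVK window shares 211 of its bases with that of MMAB, which is transcribed the other way.

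With oleate, 7 of the 9 genes fell at an adjusted p under 0.05 (ACAT2, MVK, MVD, IDI1, FDPS, FDFT1 and SQLE) and 0 rose. Among all 13789 genes, 372 (2.7%) were lower by the same rule. The 5 genes MVK, MVD, IDI1, FDPS and FDFT1 also fell by more than 20%, a limit that 60 lower genes (0.435%) met. In 6 genes (those 5 and SQLE) every oleate sample was below every control sample, which held for 79 genes (0.573%). The median difference over the 9 genes was -0.33 on the log2 scale, beside 0.087 over all genes tested.

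Values were compared with limma on log2(TPM + 1), with Benjamini-Hochberg adjustment over all 13789 genes, so a log2 difference somewhat understates the change of a gene at low TPM. TPM are shares of a total. Rescaling the samples by median-of-ratios size factors moved the median of all genes from 0.087 to -0.0011 and turned the split of calls with oleate from 3169 higher and 372 lower into 1250 higher and 1257 lower. After rescaling 8 of the 9 genes passed as lower, against 9.12% of all genes. MVK, MVD, IDI1, FDPS, FDFT1 and SQLE were called lower in all 26 alternative fits. In bulk RNA a lower level in every cell and a larger share of cells with a low level cannot be told apart.

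At the first reactions the differences as deposited were smaller and the calls depended on the fit. ACAT2, the cytosolic thiolase that joins acetyl-CoA into acetoacetyl-CoA, ranged from 32.96 to 43.47 TPM (median 39.3) in control and from 30.96 to 36.05 TPM (median 33.6) in oleate. The groups overlapped, with 2 oleate samples below all controls. The difference was -0.20 on the log2 scale (SE 0.068, limma adjusted p = 0.0417; two-sided exact permutation p = 0.0303). The ACAT2 call was kept in 14 of 26 alternative fits. It was lost without DMSO replicate 1 or 2, CAY10566 replicate 3, any oleate+DMSO replicate, or oleate+CAY10566 replicate 1 or 2, with limma adjusted p from 0.0502 to 0.101. It was also lost with no filter (limma adjusted p = 0.0976) and with no trend in the variance (0.0526). The same held with the replicate number as a block (limma adjusted p = 0.0569) and with the length and GC trend removed (0.0686). HMGCS1, the synthase that adds a further acetyl-CoA, ranged from 78.5 to 116 TPM (median 88.3) in control and from 74.69 to 88.84 TPM (median 83.3) in oleate. Its groups overlapped and it did not pass (log2 difference -0.15, SE 0.079, limma adjusted p = 0.169, two-sided exact permutation p = 0.11). HMGCS1 did pass after rescaling (-0.25, limma adjusted p = 0.0156) and with each sample's trend on length and GC removed (-0.31, limma adjusted p = 0.00504).

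The enzymes that turn mevalonate into isopentenyl diphosphate did not move alike. MVK, mevalonate kinase, ranged from 16.7 to 18.66 TPM (median 17.5) in control and from 12.47 to 13.49 TPM (median 12.9) in oleate. The groups were well apart, and MVK fell by 24.9%, a log2 difference of -0.41 (SE 0.052, limma adjusted p = 0.00021). PMVK, phosphomevalonate kinase, which acts on the product of MVK, ranged from 16.41 to 17.9 TPM (median 16.8) in control and from 15.47 to 20.62 TPM (median 16.5) in oleate. The oleate samples of PMVK lay on both sides of the controls, 2 below all of them and 2 above. Its difference was 0.0052 (95% interval -0.12 to 0.13, SE 0.059, limma adjusted p = 0.962, two-sided exact permutation p = 0.944), and it was -0.089 after rescaling. MVD, the decarboxylase that completes isopentenyl diphosphate, ranged from 93.2 to 120 TPM (median 103) in control and from 73.87 to 88.46 TPM (median 80.2) in oleate. MVD fell by 23.0% with no overlap (log2 difference -0.38, SE 0.087, limma adjusted p = 0.00582).

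The enzymes that interconvert and join the isoprene units fell by similar amounts. IDI1, the isomerase that makes dimethylallyl diphosphate, ranged from 81.61 to 97.87 TPM (median 92.4) in control and from 65.65 to 74.71 TPM (median 73.4) in oleate. It fell by 21.6% with no overlap (log2 difference -0.35, SE 0.044, limma adjusted p = 0.00021). FDPS, farnesyl diphosphate synthase, ranged from 205 to 224.5 TPM (median 215) in control and from 153 to 169.8 TPM (median 167) in oleate. The FDPS groups did not overlap, and the gene fell by 23.6% (log2 difference -0.39, SE 0.049, limma adjusted p = 0.00021).

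The squalene steps fell too. FDFT1, squalene synthase, lies on chromosome 8 (11795573 to 11839395, plus strand, GRCh38) and ranged from 109.8 to 125 TPM (median 118) in control and from 87.22 to 103 TPM (median 93.3) in oleate. It fell by 20.3% (log2 difference -0.33, SE 0.045, limma adjusted p = 0.000382). SQLE, the epoxidase that opens the oxygen-dependent part of sterol synthesis, lies at 124998497 to 125022283 on the same chromosome and strand. SQLE ranged from 70.48 to 82.09 TPM (median 77.9) in control and from 63.36 to 69.66 TPM (median 65.4) in oleate. It fell by 14.8%, the least of the 6 genes whose groups did not overlap (log2 difference -0.23, SE 0.039, limma adjusted p = 0.00172). For each of those 6 genes the two-sided exact permutation p was 0.00216, the smallest that 924 splits of 6 against 6 allow.

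With stearate, over the 6 samples with and without CAY10566, 0 of the 9 genes passed in limma in either direction, beside 823 lower (5.97%) and 1856 higher (13.5%) among all genes, and 0 of the 9 had an unadjusted p under 0.05, which 4664 genes had. Differences ran from -0.13 for MVD (95% interval -0.31 to 0.055) to 0.030 for HMGCS1 (-0.14 to 0.20), with a median of -0.050 beside 0.060 over all genes. HMGCS1 was the only one above 0, and it was -0.029 after rescaling, which also moved the split over all genes from 1856 higher and 823 lower to 1092 higher and 1404 lower. FDFT1 (-0.080, limma adjusted p = 0.222) and SQLE (-0.079, 0.166) were nearest to passing. After rescaling 2 of the 9 were lower, against 10.2% of all genes. The groups overlapped for every gene. MVD ranged from 78.97 to 124 TPM (median 91.1) and FDPS from 188 to 229 TPM (median 210) within stearate, spreads of 16.7 and 19.2 TPM (SD, n = 6), and the samples of each split by CAY10566, as described below.

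**Figure D2:**
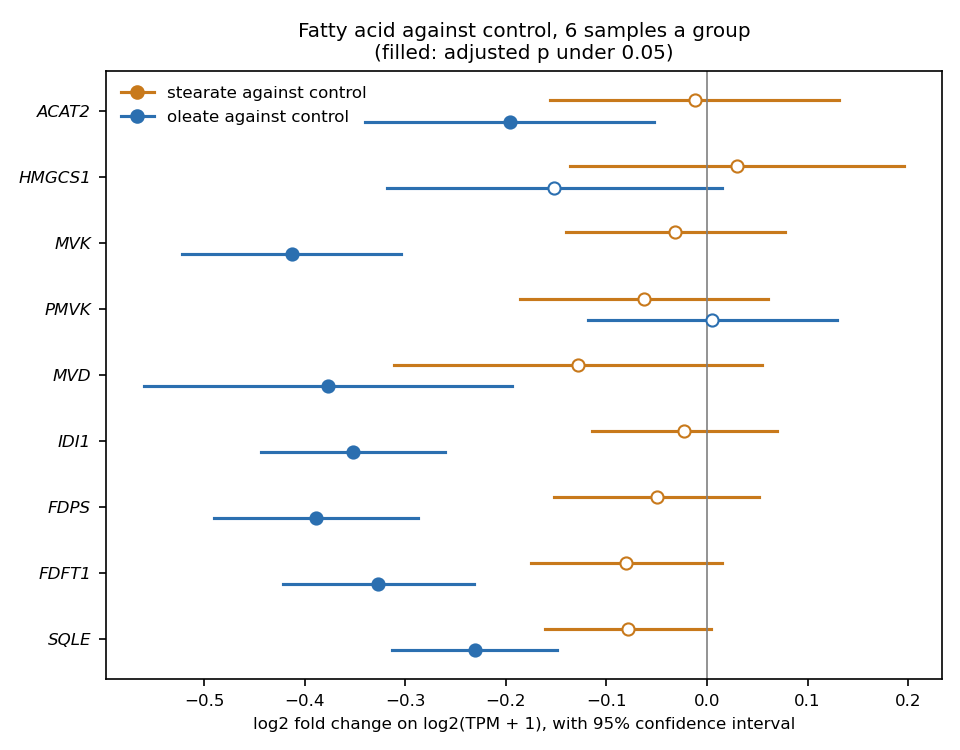
Log2 differences on log2(TPM + 1) of stearate (orange) and oleate (blue) against the same 6 control samples for the 9 genes, with 95% confidence intervals; filled points have a limma adjusted p under 0.05. With oleate 7 points are filled and lie between -0.20 and -0.41, and with stearate 0 are filled and all lie between -0.13 and 0.030.

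The fatty acids were also compared directly. 6 genes were higher with stearate than with oleate (MVK, MVD, IDI1, FDPS, FDFT1 and SQLE), beside 945 genes (6.85%) among all, and 3 of them (MVK, IDI1 and FDPS) were higher by more than 25%, beside 220 genes (1.6%). The same 3 showed no overlap, all 6 stearate samples being higher, as did 405 genes (2.94%). After rescaling 8 of 9 were higher, against 10.4% of all genes. MVK ranged from 15.75 to 19.65 TPM (median 16.9) with stearate, a log2 difference from oleate of 0.38 (SE 0.052, limma adjusted p = 3.34e-05). IDI1 ranged from 85.43 to 94.17 TPM (median 90.45), a difference of 0.33 (SE 0.044, limma adjusted p = 2.69e-05), and FDPS differed by 0.34 (SE 0.049, limma adjusted p = 6.27e-05). Against the control range, 3 MVK and 3 FDPS stearate samples were below all controls, 1 and 2 above all of them, and all 6 of IDI1 within it. Without stearate+CAY10566 replicate 1, stearate+CAY10566 replicate 3 or oleate+DMSO replicate 3, only 1 of the 9 genes was higher by more than 25%. FDFT1 (0.25, SE 0.045, limma adjusted p = 0.000681) and SQLE (0.15, SE 0.039, limma adjusted p = 0.00951) differed with 5 of 6 stearate samples above every oleate sample. MVD passed narrowly (0.25, SE 0.087, limma adjusted p = 0.0496). That MVD call was kept in 10 of 26 alternative fits, and among the fits without 1 library only without CAY10566 replicate 3, any stearate+DMSO replicate or oleate+CAY10566 replicate 2. ACAT2 (0.18, limma adjusted p = 0.0632), HMGCS1 (0.18, 0.114) and PMVK (-0.068, 0.45) did not pass.

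CAY10566 over all 18 samples (9 against 9, adjusted for the fatty acid) changed 0 of the 9 genes in limma, as it did 0 of all genes (0.0%). At an unadjusted p under 0.05 there were 2 of the 9, MVD and FDFT1, and 748 genes in all. MVD differed by 0.18 (95% interval 0.056 to 0.31, SE 0.060, limma adjusted p = 0.85) and FDFT1 by 0.090 (0.025 to 0.16, SE 0.031, limma adjusted p = 0.85). The other 7 genes lay between -0.036 (PMVK) and 0.085 (HMGCS1).

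Within each level of CAY10566 the fatty acids were compared 3 against 3, in a limma model of 6 conditions. Without CAY10566, 6 genes were lower with oleate (MVK, MVD, IDI1, FDPS, FDFT1 and SQLE), beside 428 genes (3.1%) in all. With CAY10566, 3 were lower (MVK, IDI1 and FDPS), beside 7 genes (0.0508%) in all, a count over all genes that rose to 74 without CAY10566 replicate 3. These counts depended on the scaling: after rescaling 6 of the 9 were lower with CAY10566 (32 genes in all) and 7 without it (1307 in all), and with the length and GC trend removed 5 (30 in all) and 7 (954 in all). The MVK call with CAY10566 passed in 8 of 25 alternative fits and in 4 of the 18 without 1 library, and was lost with the replicate number as a block (limma adjusted p = 0.0706). The oleate difference of MVK was -0.40 without and -0.42 with CAY10566 (SE 0.077 each), and that of IDI1 was -0.32 and -0.39 (SE 0.064 each). The test of the change in the oleate difference passed for 0 of the 9 genes and for 0 genes in all (0.0%), with 1415 genes at an unadjusted p under 0.05. In that test FDPS came nearest, at 0.17 (SE 0.047, limma adjusted p = 0.449). Without CAY10566 replicate 1 or 2, or oleate+CAY10566 replicate 1 or 3, only 1 of the 9 genes passed with CAY10566. Stearate was above oleate for 4 genes without CAY10566 (420 genes, 3.05%) and for 5 with it (262 genes, 1.9%).

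The stearate difference of FDPS changed with CAY10566. FDPS levels were 220.0, 223 and 224.5 TPM with DMSO alone, 205, 208 and 209.95 TPM with CAY10566 alone, and 188, 189 and 198 TPM with stearate and DMSO. They were 223, 225 and 229 TPM with stearate and CAY10566, 153, 161 and 166 TPM with oleate and DMSO, and 167, 168 and 169.8 TPM with oleate and CAY10566. As deposited, the means from highest to lowest were stearate+CAY10566, DMSO, CAY10566, stearate+DMSO, oleate+CAY10566 and oleate+DMSO. Of these neighbours only the first pair overlapped, and the order after rescaling was not examined. Stearate was thus below control without CAY10566 and above it with CAY10566, with no overlap in either setting, a pattern that 27 genes (0.196%) showed.

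Without CAY10566, FDPS fell with stearate (log2 difference -0.22, SE 0.033, limma adjusted p = 0.000857) and was the 1 gene of the 9 to pass, beside 487 lower genes (3.53%). The FDPS call held in all 25 alternative fits. After rescaling 4 genes passed as lower (FDPS, MVD, FDFT1 and SQLE), beside 957 in all. With CAY10566 the difference was 0.12 (SE 0.033, limma adjusted p = 0.0542), so 0 of the 9 passed, beside 655 genes (4.75%) that did in either direction. Added to stearate, CAY10566 raised FDPS by 0.24 (SE 0.033, limma adjusted p = 0.0171), and 2 genes (0.0145%) changed there in all. That call was lost without stearate+DMSO replicate 2 or 3 or any stearate+CAY10566 replicate (limma adjusted p from 0.0796 to 0.205), with no trend in the variance (limma adjusted p = 0.318) and after rescaling (limma adjusted p = 0.0505). Added to no fatty acid or to oleate, it changed 0 of the 9 genes and 0 in all (0.0% each). The test of the change in the stearate difference gave 0.34 for FDPS (95% interval 0.24 to 0.44, SE 0.047, limma adjusted p = 0.034), the 1 gene of 13789 that passed (0.00725%). A two-sided exact permutation of stearate and control labels within each level of CAY10566 gave p = 0.005, the smallest that 400 relabellings allow. Its null is no stearate effect at either level, so it does not test whether the effect changed. The adjusted p of this change depended on the fit: it ran from 0.0105 to 0.2 and passed in 7 of 25 alternatives, while the value stayed between 0.32 and 0.40. Among the limma fits without 1 library it passed only without stearate+DMSO replicate 1, oleate+DMSO replicate 2 or 3, or oleate+CAY10566 replicate 3, and reached 0.2 without stearate+DMSO replicate 2.

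Of the 9 genes, 4 had a stearate difference below 0 without CAY10566 and above 0 with it: FDPS, ACAT2, MVD and MVK, of which MVD and MVK were below 0 in both settings after rescaling (-0.0079 and -0.016 with CAY10566). Whether FDPS differed from the other 3 was not tested. ACAT2 went from -0.14 to 0.12, a change of 0.26 (95% interval -0.021 to 0.54, limma adjusted p = 0.538), and MVK from -0.073 to 0.010, a change of 0.084 (limma adjusted p = 0.815). MVD levels were 93.2, 103 and 109 TPM with DMSO, 78.97, 84.61 and 87.81 TPM with stearate and DMSO, 96.01, 103.7 and 120 TPM with CAY10566, and 94.45, 107 and 124 TPM with stearate and CAY10566. Stearate lay below DMSO with no overlap without the inhibitor, and the groups overlapped with it. How many of all genes separate in this way without the inhibitor was not counted. The stearate difference of MVD was -0.28 without CAY10566 (SE 0.094, limma adjusted p = 0.0594) and 0.020 with it, and the change was 0.30 (95% interval 0.015 to 0.58, limma adjusted p = 0.518), so neither passed. The first did pass in 5 of 25 alternative fits, among them rescaling (-0.37, limma adjusted p = 0.00697). Over the other 5 genes the change ran from -0.056 (PMVK) to 0.099 (FDFT1), with limma adjusted p of at least 0.661.

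**Figure D3:**
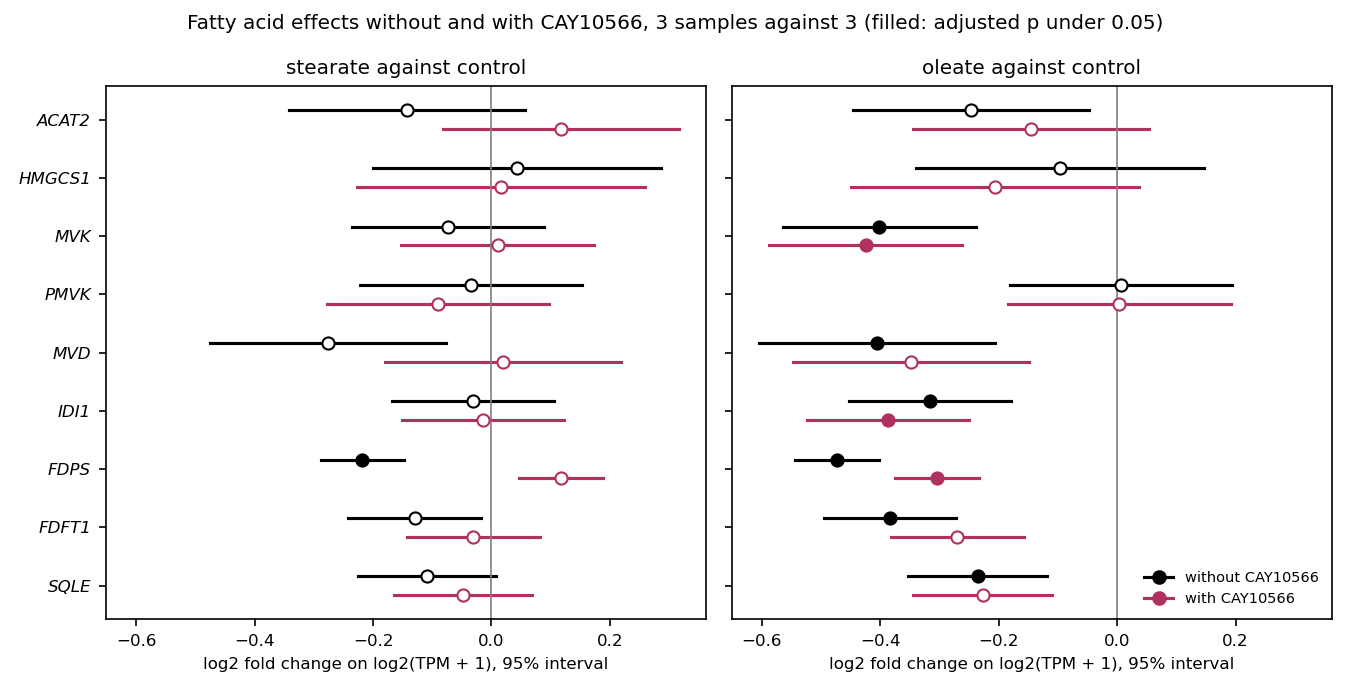
Log2 differences of stearate (left) and oleate (right) against control for the 9 genes without (black) and with (red) CAY10566, 3 samples against 3, with 95% intervals on log2(TPM + 1); filled points have a limma adjusted p under 0.05. For FDPS the stearate difference is -0.22 without and 0.12 with CAY10566, and for the oleate differences 6 points are filled without and 3 with the inhibitor.

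As deposited, the sum over the 9 genes was highest with stearate and CAY10566, at 788 ± 30.6 TPM (SD, n = 3), and close to that with CAY10566 alone, at 773 ± 44.8 TPM, and with DMSO, at 770.5 ± 35.7 TPM. With stearate and DMSO it was 701 ± 36.2 TPM, from 666 to 738 TPM, and overlapped the DMSO range of 729.5 to 795 TPM. With oleate it was 633 ± 19.1 TPM with CAY10566 and 609 ± 19.7 TPM without, and these 2 overlapped each other and lay below every other condition. After rescaling the order at the top turned, with DMSO highest at 805 ± 38.8 TPM and stearate with CAY10566 at 793 ± 12.3 TPM. The overlaps were lost too: stearate with DMSO ran from 675 to 704 TPM against 762 to 838 TPM with DMSO, and oleate from 557 to 597 TPM without CAY10566 against 614 to 623 TPM with it.

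**Figure D4:**
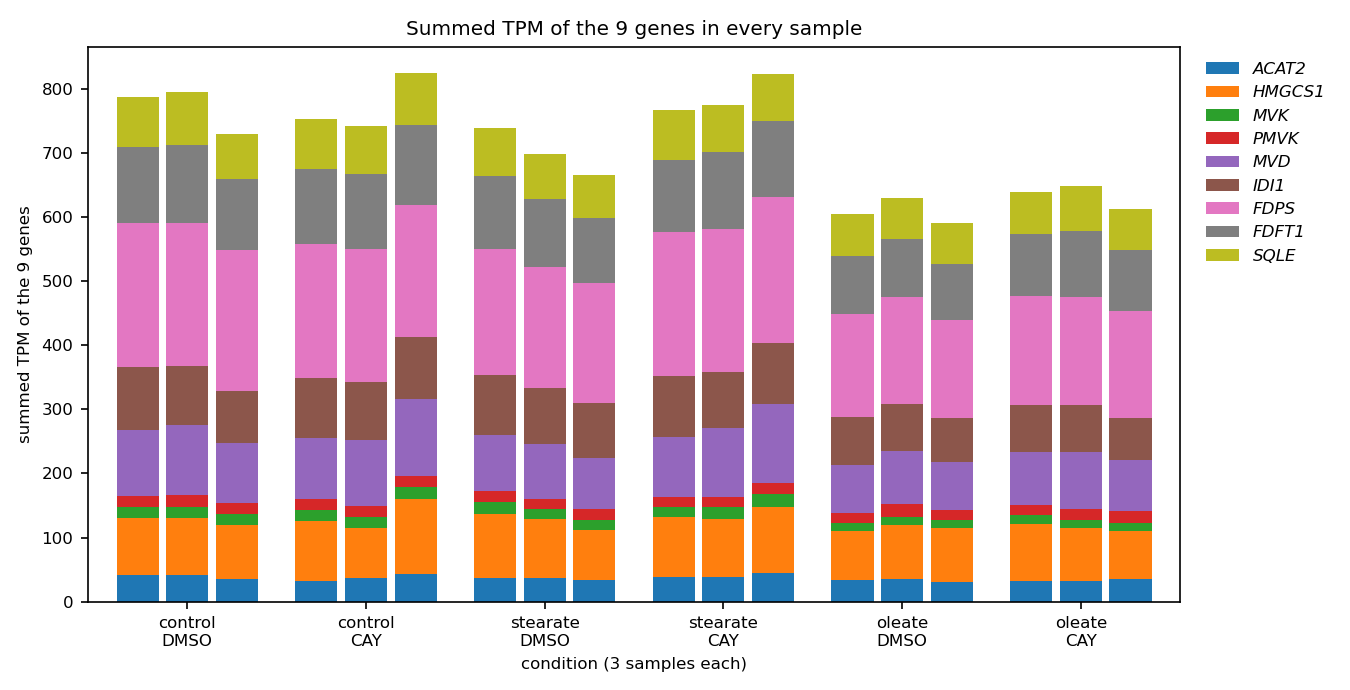
Summed TPM of the 9 genes (vertical axis, from 0) in each of the 18 samples, stacked by gene, in the 6 conditions. The oleate samples sum to between 591 and 648 TPM, and the lowest of the other 12 samples, with stearate and DMSO, to 666 TPM.

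Neighbouring steps were described by lists of known enzymes. Their counts stand beside 23.0% of all genes that rose and 2.7% that fell with oleate (9.07% and 9.12% after rescaling), 13.5% that rose and 5.97% that fell with stearate, and 6.85% above and 14.3% below for stearate against oleate. Of 11 genes of the later sterol steps, from lanosterol to cholesterol, 6 fell and 0 rose with oleate, with a median log2 difference of -0.17. DHCR7, the reductase of the last step, fell by 0.46 (SE 0.048, limma adjusted p = 2.23e-05) and MSMO1, a sterol C4-methyl oxidase, fell by 0.44 (SE 0.059, limma adjusted p = 0.000361). With stearate 1 of the 11 rose and 1 fell: TM7SF2, a sterol C14 reductase, by 0.28 (limma adjusted p = 0.0188) and EBP, a sterol isomerase, by -0.20 (limma adjusted p = 0.014). Stearate was above oleate for 6 of the 11 and below it for 0.

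The branches that use farnesyl diphosphate for other ends showed no common direction. Of 16 genes for prenylation, ubiquinone and dolichol, 5 rose and 0 fell with oleate as deposited, a share near the 23.0% of all genes that rose, and 2 rose and 3 fell after rescaling. PGGT1B, a subunit of a protein prenyltransferase, was 0.31 higher (SE 0.077, limma adjusted p = 0.008), and 0.22 higher after rescaling. With stearate 2 rose, PDSS2, a subunit of the enzyme that makes the ubiquinone side chain (0.41, limma adjusted p = 0.000702), and PGGT1B (0.39, limma adjusted p = 0.00172), and 0 fell, or 1 after rescaling.

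Among 7 genes that carry or control SREBPs, 2 fell and 2 rose with oleate, and 3 fell and 1 rose after rescaling, beside the shares of all genes given above. INSIG1, which holds the SREBP complex in the endoplasmic reticulum and is itself an SREBP target, fell by 0.59 (SE 0.059, limma adjusted p = 1.62e-05) and SREBF1, which encodes SREBP-1, fell by 0.35 (SE 0.064, limma adjusted p = 0.00242). With stearate SREBF1 fell by 0.22 (limma adjusted p = 0.0208) and INSIG2 by 0.20 (limma adjusted p = 0.00454), and 0 rose. INSIG1 with stearate (-0.13, limma adjusted p = 0.122) and SREBF2, which encodes SREBP-2, the form that mainly drives sterol genes, with oleate (-0.074, 0.444) and with stearate (-0.047, 0.653) did not pass. Of the 9 tested genes of acetyl-CoA supply, 2 fell and 1 rose with oleate. SLC25A1, the mitochondrial citrate carrier, fell by 0.41 (SE 0.04, limma adjusted p = 1.59e-05) and ACSS2, which activates acetate, by 0.27 (SE 0.074, limma adjusted p = 0.0129). With stearate 2 fell and 1 rose, the falls being ACAT1, the mitochondrial thiolase (-0.21, limma adjusted p = 0.00058), and SLC25A1 (-0.19, limma adjusted p = 0.0033). With CAY10566, 0 genes of any of the 4 lists passed in limma. At an unadjusted p under 0.05 there were 3 of the later sterol genes and 1 in each of the other lists.

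**Figure D5:**
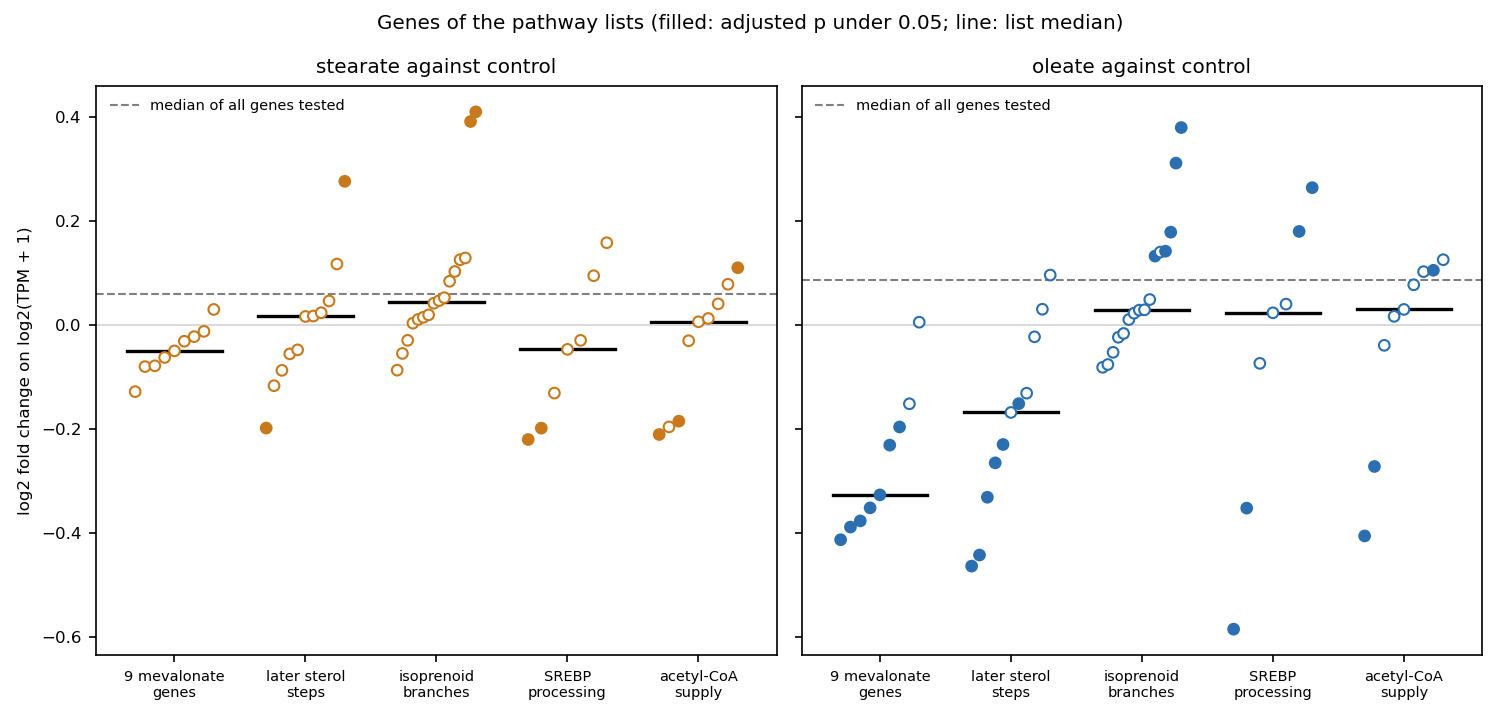
Log2 differences on log2(TPM + 1) of stearate (left) and oleate (right) against control for the tested genes of 5 lists, each point a gene; filled points have a limma adjusted p under 0.05, black lines are list medians and the dashed line the median of all genes. With oleate the 9 mevalonate genes have a median of -0.33 and the later sterol genes of -0.17, beside 0.087 for all genes.

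The genes whose pattern over the 18 samples was most like that of the 9 genes were ranked by Pearson's r with the mean of the 9 standardised patterns, among genes with a mean of at least 5 TPM. The first were SCD (0.95), which encodes stearoyl-CoA desaturase, LIPG (0.95), an endothelial lipase, INSIG1 (0.93), DHCR7 (0.93) and ALDOC (0.90), an aldolase. By rank correlation a different gene, PRSS22, came first (0.94), named here after its value was seen. The 18 points share their conditions and their normalization, so these values are descriptions. Of the 9 genes themselves, 8 had r between 0.74 (HMGCS1) and 0.95 (FDFT1) with the mean that includes them, and PMVK had 0.080.

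Several of the 9 genes lie close to other transcripts, which matters for reads near their ends. ACAT2 (chromosome 6, 159762045 to 159779112, plus strand) overlaps TCP1, on the other strand, by 615 bases at its end. TCP1, a chaperonin subunit, had a mean of 268 TPM and a log2 difference of 0.083 with oleate (limma adjusted p = 0.138), opposite in sign to ACAT2. MVK (chromosome 12, 109573255 to 109598125, plus strand) overlaps MMAB, an enzyme of cobalamin metabolism on the other strand, by 326 bases at its start. MMAB had a mean of 64.8 TPM, beside 15.9 TPM for MVK, and was lower with oleate too (-0.22, SE 0.053, limma adjusted p = 0.00663). MVD (chromosome 16, 88651935 to 88663161, minus strand) starts 137 bases from the antisense gene SNAI3-AS1, which had a mean of 4.59 TPM and was lower with oleate (-0.28, SE 0.092, limma adjusted p = 0.0321). IDI1 (chromosome 10, 1039152 to 1049119, minus strand) starts 419 bases from WDR37, which did not pass with oleate (0.13, limma adjusted p = 0.247). FDPS (chromosome 1, 155308748 to 155320666, plus strand) overlaps RUSC1-AS1, at a mean of 1.93 TPM, by 3804 bases. On the other strand IDI2-AS1 overlaps IDI1 by 6274 bases, and a long noncoding gene each overlaps HMGCS1 by 3239 and FDFT1 by 4641 bases. SQLE-DT starts 299 bases from SQLE and a further noncoding gene 651 bases from PMVK. These 5 neighbours had means of at most 1.69 TPM. SOD2 and SOD2-OT1, which a later annotation places over the start of ACAT2, were not analysed here. The libraries kept strand, but the strand setting of the counting is not given in the sources used here, and its part in these values was not tested. FDPS has 8 and IDI1 3 annotated pseudogenes, each with a mean of at most 0.0511 TPM, so reads shared with them could be split.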

How the data were processed

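RNA of 18 OVCAR5 samples was sequenced by the authors from stranded poly(A) libraries on a NovaSeq instrument. According to their methods and processing notes, reads were trimmed with Trim Galore, aligned to GRCh38 with STAR 2.7.1a and quantified with RSEM. The authors deposited a table of TPM per gene, a share of transcripts with the same total in every sample, so depth is unknown. The last line of the table names no gene and was left out. Symbols came from a table of gene names, which matched 56321 of 60483 identifiers, coordinates from GENCODE release 44 (GRCh38) and upstream sequences from RefSeq (GRCh38.p14).

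Samples were grouped by their titles. The 13789 genes whose TPM averaged 1 or more were tested with limma 3.58.1 in R 4.3.3 (lmFit, eBayes with a trend) on log2(TPM + 1), and p-values were adjusted by Benjamini-Hochberg over all genes tested, with a threshold of 0.05 and, where stated, a rise of over 25% or a fall of over 20%. Fatty acids were compared in 3 groups of 6 samples, CAY10566 in 9 against 9 samples with the fatty acid as a covariate, and effects within CAY10566 levels and their interactions in a model of 6 conditions. Single genes were also tested by two-sided exact permutation in scipy 1.17.1. The fits were tested on simulated data. The 9 genes, the gene lists and the tests were chosen with earlier results of these data known.

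All 9 genes were named. From each of the other lists the 2 genes with the largest change among those that passed were named for stearate and for oleate. A gene that this rule names is not reported here. Neighbouring transcripts were named by distance (within 1000 bases). Alternatives were a pseudocount of 0.1, no filter, a minimum mean of 5 TPM, no trend, median-of-ratios scaling, the replicate number as a block, CAY10566 as a covariate, and each sample left out in turn. A correction of every sample for the length and GC content of transcripts, by splines, was added after the data were seen.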

Additional observations from a re-analysis of the deposited data

Results flagged for a closer look

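FDPS was picked out because its stearate effect differed between samples without and with CAY10566, by the interaction term of the limma model. The difference of differences was 0.34 on the log2 scale (SE 0.047, limma adjusted p = 0.034). That call passed in 7 of 25 alternative fits and in 4 of the 18 without 1 library. The two-sided exact permutation p was 0.005, the smallest possible, but relabelling within each level of CAY10566 does not test whether the effect changed. All 3 stearate samples were below all 3 control samples without CAY10566, and all 3 were above them with it. This pattern was shown by 27 genes (0.196%). What underlies this was not tested. Each of the 9 genes was also screened for a single sample far from the rest in the control, stearate and oleate groups. The screen flagged 0 of these 27 groups, which does not mean that no sample stood apart. HMGCS1 was 116.28 TPM in CAY10566 replicate 3, against at most 93.63 TPM in the other control samples. PMVK was 20.62 TPM in oleate+DMSO replicate 2, against at most 17.97 TPM in the other oleate samples.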

How the results depend on the processing

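Over the alternatives, MVK, MVD, IDI1, FDPS, FDFT1 and SQLE were lower with oleate in all 26 fits, and MVK, IDI1, FDPS, FDFT1 and SQLE higher with stearate than with oleate in all 26. ACAT2 was lower with oleate in 14 of 26. Causes of the changes below were not tested.

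With median-of-ratios scaling, genes of the 9 that passed numbered 2 lower with stearate, 4 lower with stearate without CAY10566, 6 lower with oleate with CAY10566, 0 higher for CAY10566 added to stearate and 0 for the interaction with stearate. With the length and GC trend removed these were 2, 3, 5, 1 and 0, with no trend in eBayes 1 with oleate and CAY10566, 0 for CAY10566 added to stearate and 0 for the interaction. With no filter 1 was lower with oleate and CAY10566, and with a mean TPM of at least 5 there were 2 lower with stearate without CAY10566. Over all genes these comparisons gave 823, 487, 7, 2 and 1 calls, against 1404, 957, 32, 1 and 0 with scaling, 1391, 844, 30, 3 and 0 with the length and GC trend removed, and 7 became 6 with no trend or no filter.

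The list counts below stand beside all-gene calls that moved too: with oleate 3169 were higher and 372 lower, 1250 and 1257 with scaling, and 730 and 844 with length and GC, and with stearate 1856 and 823, then 1092 and 1404, and 1040 and 1391. Later sterol genes lower with stearate numbered 2 with the length and GC trend removed. Isoprenoid genes lower with stearate were 1 (scaling) and 2 (length and GC), those higher with oleate 3 (no filter), 2 (scaling) and 1 (length and GC), and those lower with oleate 3 (scaling) and 2 (length and GC). SREBP genes lower with stearate were 1 (no filter), those higher with oleate 1 (no filter, scaling, length and GC), those higher with stearate than oleate 2 (scaling) and 3 (length and GC), and those lower 1 (no filter). Acetyl-CoA genes higher with stearate were 0 (scaling, length and GC) and those lower 4 (length and GC). Those higher with oleate were 2 (mean TPM of at least 5, replicate block) and 0 (no filter, no trend, scaling, length and GC), and stearate was above oleate for 2 and below it for 1 (scaling).

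A check of whether replicate numbers pair the samples did not decide the question. Deviations of samples with the same number correlated between -0.18 and 0.103 (45 pairs, median 0.012). Those with other numbers correlated between -0.124 and 0.171 (90 pairs, median -0.0109). Of 18 samples, 9 correlated best with their own number among 3. With the replicate number as a block, the calls of ACAT2 with oleate (limma adjusted p = 0.0569) and of MVK with oleate and CAY10566 (0.0706) were lost. So were those of MVD for stearate against oleate (limma adjusted p = 0.0602) and of FDPS for the interaction of stearate and CAY10566 (0.0614).

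With 1 library left out, the genes of the 9 that passed numbered 1 to 3 that were higher by over 25% with stearate than with oleate, 1 to 2 lower with stearate without CAY10566, 0 to 1 higher with stearate with CAY10566, 1 to 4 lower with oleate with CAY10566, 0 to 1 for CAY10566 added to stearate, and 0 to 1 for the interaction. The same fits called 186 to 239, 247 to 565, 152 to 386, 5 to 74, 0 to 3 and 0 to 1 genes in all in those directions. For the list counts that follow, the all-gene calls of the same fits are not given here. Later sterol genes higher with stearate were 1 to 2. Isoprenoid genes were 2 to 5 higher with stearate, 3 to 5 higher with oleate and 1 to 3 lower with stearate than oleate. SREBP genes were 0 to 1 higher with stearate, 1 to 2 higher with oleate and 1 to 2 lower with stearate than oleate. Acetyl-CoA genes were 0 to 1 higher with stearate, 0 to 3 higher with oleate and 1 to 2 higher with stearate than oleate.

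Signs turned only for values that did not pass. With scaling these were HMGCS1 with stearate (-0.029, without CAY10566 -0.047, with it -0.011, interaction 0.035), MVK and MVD with stearate and CAY10566 (-0.016 and -0.0079), and PMVK with oleate (-0.089, without CAY10566 -0.11, with it -0.064, interaction of stearate 0.0033). With the length and GC trend removed they were HMGCS1 with stearate (-0.098, without CAY10566 -0.14, with it -0.058, interaction 0.081) and PMVK with stearate without CAY10566 (0.019). With 1 library left out, stearate values ranged from -0.057 to 0.021 for ACAT2 and from -0.011 to 0.10 for HMGCS1. Without CAY10566 they ranged from -0.036 to 0.15 for HMGCS1 and from -0.10 to 0.026 for IDI1. With CAY10566 they ranged from -0.12 to 0.16 for HMGCS1, -0.064 to 0.087 for MVK, -0.081 to 0.11 for MVD, -0.037 to 0.017 for IDI1 and -0.049 to 0.0049 for FDFT1. Oleate values for PMVK ranged from -0.046 to 0.032, without CAY10566 from -0.12 to 0.080 and with it from -0.035 to 0.042. CAY10566 values ranged from -0.00044 to 0.060 for ACAT2 and from -0.018 to 0.025 for MVK, and with stearate from -0.0030 to 0.15 for MVK. Interactions with stearate ranged from -0.16 to 0.12 for HMGCS1, -0.090 to 0.0042 for PMVK and -0.040 to 0.089 for IDI1.

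TPM keep no read counts, so how far depth limits the smaller differences is unknown.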
